A study of Mus musculus with 24 samples.

Results

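The integrated stress response and the serine synthesis pathway were followed through 10 genes, Atf4, Ddit3, Trib3, Chac1, Asns, Phgdh, Psat1, Shmt2, Ddit4 and Sesn2, chosen by name from the 55359 genes of the count table. The cells were cultured oligodendrocytes, the myelin-forming glia, prepared from cortices of C57BL6/J pups at postnatal days 5 to 7 with magnetic beads carrying an O4 antibody. They were differentiated for 3 days with the thyroid hormone triiodothyronine and then kept for 3 days with or without ethanol. Experiment 1 compared 6 wells at 30 mM ethanol with 6 control wells at 0 mM, and experiment 2 compared 6 wells at 10 mM with 6 further control wells at 0 mM. All 24 wells shared the strain, the isolation and the differentiation. Control plates stood in another incubator than ethanol plates, and effects of ethanol and of the incubator cannot be told apart. The same holds for dose, experiment and batch. The labels call the wells biological replicates but do not tie them to separate animals, so p-values measure the spread between wells.

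As background, several kinases phosphorylate the translation factor eIF2α when amino acids are short, proteins misfold in the endoplasmic reticulum or heme is lacking. General translation then slows while translation of the mRNA of ATF4, a bZIP transcription factor, increases, so that the level of Atf4 mRNA and the amount of ATF4 protein need not move together. ATF4 and its partners bind composite C/EBP-ATF response elements near genes for amino acid synthesis, transport and tRNA charging, among them Asns, Phgdh, Psat1 and Shmt2. In oligodendrocytes this response is best known from disorders of myelin, and serine feeds the synthesis of the sphingolipids and phosphatidylserine of the myelin membrane.

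Promoter sequences are shown first for the response element through which ATF4 is known to act. RefSeq promoters of GRCm38.p6 were found for 10 of 10 genes, in 11 windows since Psat1 had a pair, and were searched over the 250 bases before the annotated start on both strands. The letters TGATGNAA, a form of the C/EBP-ATF response element, were present in Asns and Chac1 alone, 2 of 10 genes, beside 3.91% of all genes with a RefSeq promoter window of the same length (3.45% of windows). They began 23 bases before the start of Asns on the gene's strand, and 193 bases before that of Chac1 on the opposite strand. The 10 genes include known targets of ATF4, so an excess over all genes is no independent support. These are the 2 sequences that carry the element, with its letters in capitals, written 5′ to 3′ on the gene's strand; Asns lies on the minus strand at chr6:7693210-7693459 and Chac1 on the plus strand at chr2:119350992-119351241.
Asns: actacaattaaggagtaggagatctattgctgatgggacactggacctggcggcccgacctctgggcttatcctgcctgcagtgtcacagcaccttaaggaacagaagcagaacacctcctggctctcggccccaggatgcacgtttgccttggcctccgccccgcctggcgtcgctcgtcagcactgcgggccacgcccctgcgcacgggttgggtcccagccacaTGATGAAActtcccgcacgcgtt
Chac1: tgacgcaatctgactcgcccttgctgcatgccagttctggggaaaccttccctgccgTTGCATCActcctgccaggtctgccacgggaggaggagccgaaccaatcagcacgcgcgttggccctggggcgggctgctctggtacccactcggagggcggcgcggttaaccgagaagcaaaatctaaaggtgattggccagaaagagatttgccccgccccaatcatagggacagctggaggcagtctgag

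The CCAAT box, a common promoter element of GC-rich starts, was present in Atf4, Ddit3, Chac1, Psat1, Phgdh, Ddit4 and Sesn2, 7 of 10 genes, beside 37.5% of all genes (33.8% of windows). For both motifs the shares of all genes were taken over every gene with a window, whether or not these cells expressed it. Neither motif was found in the windows of Trib3 and Shmt2. For Trib3, unlike the other windows, the bases after the start were not found in the gene's annotated transcripts, so its start is less certain. A match describes letters and is no proof of a binding site, and a missing match covers only this window. Atf4, Phgdh and Ddit4 are shown because the first pair fell and the last rose at 30 mM ethanol, as described next; capitals mark CCAAT on either strand. Atf4 lies on the plus strand at chr15:80254934-80255183 with boxes starting 117 and 76 bases before its start. Phgdh lies on the minus strand at chr3:98339970-98340219 with boxes at 193 and 23 bases, and Ddit4 on the minus strand at chr10:59951771-59952020 with boxes at 170 and 137 bases. All 3 windows hold 2 boxes each, on the gene's strand in Atf4 and Phgdh and on the opposite strand in Ddit4.
Atf4: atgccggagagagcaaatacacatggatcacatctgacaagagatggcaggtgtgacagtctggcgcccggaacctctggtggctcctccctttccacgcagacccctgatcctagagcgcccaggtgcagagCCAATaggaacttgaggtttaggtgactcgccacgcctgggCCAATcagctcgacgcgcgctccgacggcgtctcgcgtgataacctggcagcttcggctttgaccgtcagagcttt
Phgdh: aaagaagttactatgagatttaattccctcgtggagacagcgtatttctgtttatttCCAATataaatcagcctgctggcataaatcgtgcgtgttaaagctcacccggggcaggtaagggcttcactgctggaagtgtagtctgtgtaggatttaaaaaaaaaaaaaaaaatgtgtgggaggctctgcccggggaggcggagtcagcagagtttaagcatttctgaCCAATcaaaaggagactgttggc
Ddit4: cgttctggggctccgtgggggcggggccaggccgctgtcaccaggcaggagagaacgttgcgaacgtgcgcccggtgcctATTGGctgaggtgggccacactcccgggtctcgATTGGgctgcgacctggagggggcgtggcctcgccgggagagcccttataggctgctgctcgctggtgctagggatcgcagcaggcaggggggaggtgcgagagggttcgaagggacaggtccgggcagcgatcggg

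RNA was measured by 3′ tag sequencing, which reads the end of each transcript, with total counts of 1184609 to 1817028 per well. Levels are CPM, counts brought to a common library total, scaled by TMM, a correction for RNA composition, and 3 counts in a well corresponded to 1.71 to 2.56 CPM. Tags do not grow in number with transcript length, so CPM values rank the genes by transcripts without a length correction. Atf4 and Psat1 were the most abundant, with means of 307 and 323 CPM in the controls of experiment 1, and Trib3 and Chac1 the scarcest (4.23 and 5.34 CPM). Oligodendrocyte markers were abundant in all 4 groups (summed level at least 7027 CPM in every well), and astrocyte markers were abundant too (at least 4012 CPM), so the cultures were not of a single cell type. One well stood apart: the oligodendrocyte markers of 30 mM replicate 1 summed to 16689 CPM against a median of 10081 CPM in its group.

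At 30 mM ethanol the 10 genes split into a falling and a rising set. Atf4 and the serine and folate enzymes Phgdh, Psat1 and Shmt2 were lower than in controls, while Ddit3, Ddit4 and Sesn2 were higher. Asns, the best known amino acid target of ATF4, did not pass the test, and Trib3 and Chac1 were too scarce to be tested. By edgeR's quasi-likelihood test with Benjamini-Hochberg adjustment over all genes tested, 4 of 8 tested genes were lower, against 6.65% of 13235 genes tested, and 3 were higher, against 3.02%. Their median log2 fold change was -0.16, and that of all genes tested was 0.02. The 10 genes were chosen with earlier results of these data known, so an excess over the shares of all genes is no independent support. In a bulk culture, fewer cells of a type and less RNA per cell cannot be told apart.

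Atf4, which encodes the transcription factor at the centre of the response, stood between 291 and 336 CPM in the 6 control wells of experiment 1, with a median of 303. At 30 mM it stood between 214 and 239.8 CPM, with a median of 225. Every ethanol well was therefore below every control well. The means were 225 ± 8.64 and 307 ± 16.5 CPM (SD, n = 6 each), and edgeR gave a log2 fold change of -0.44 (SE 0.0628, adjusted p = 1.96e-06), so that it fell by 26.4%. Atf4 was also called without any 1 of the 12 wells and under each of 10 other settings, with edgeR, DESeq2 or limma adjusted p-values up to 3.64e-05. Over the 4 groups, the 30 mM wells were the lowest for Atf4 and overlapped none of the others, whose own ranges overlapped each other.

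**Figure D1:**
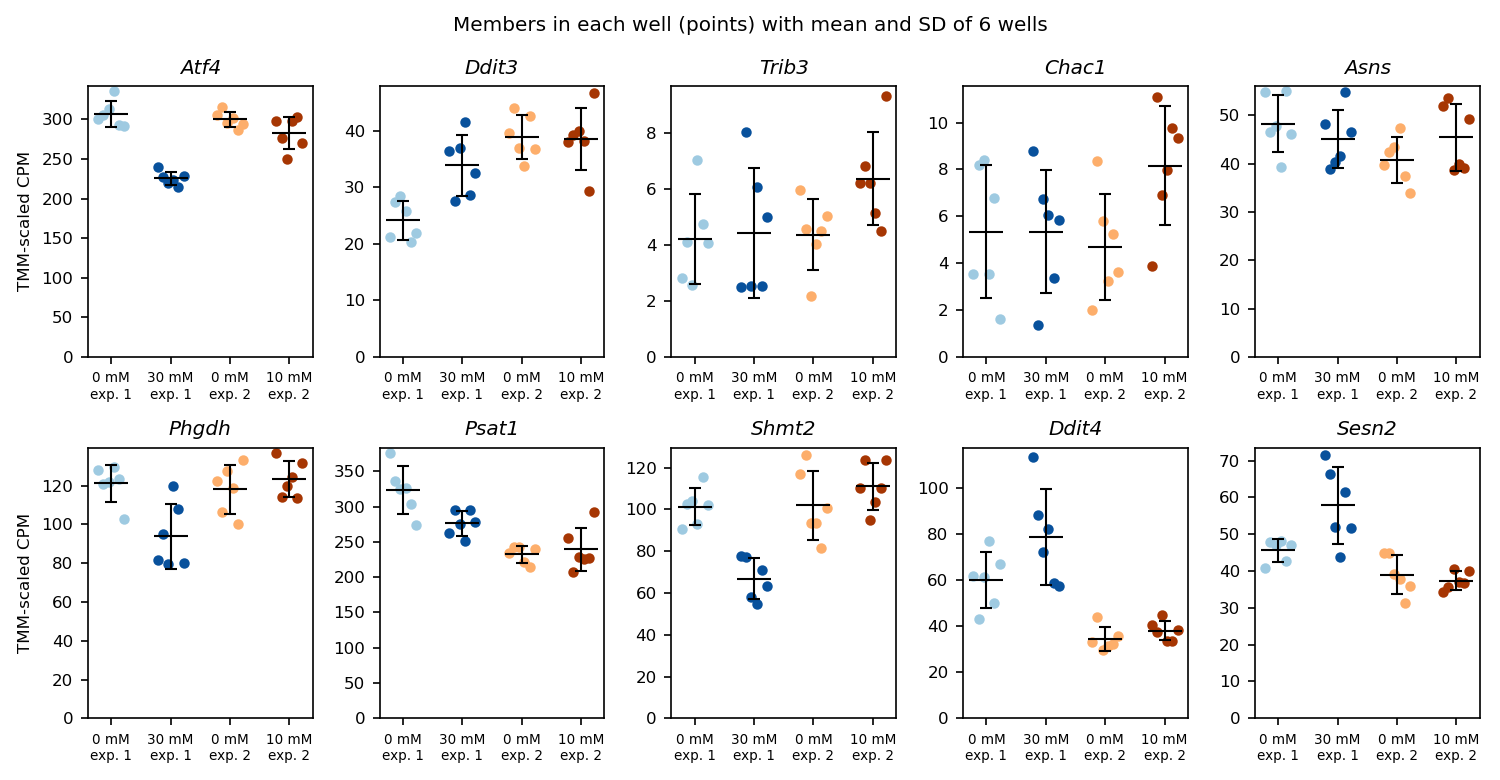
Level of each of the 10 genes (TMM-scaled CPM, vertical axis from 0) in the 4 groups of 6 wells; points are wells, and bars give the mean and SD. The 30 mM wells of Atf4 (214 to 239.8 CPM) and Shmt2 (54.5 to 77.8 CPM) lie below all other wells, while those of Ddit3, Ddit4 and Sesn2 overlap their controls.

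Shmt2, the mitochondrial enzyme that turns serine into glycine and hands a carbon unit to folate, had the largest fall of the 8 tested genes. Its control wells ranged from 90.8 to 116 CPM (median 102) and its 30 mM wells from 54.5 to 77.8 CPM (median 67.1), again without overlap. The means were 101 ± 8.85 and 66.9 ± 9.88 CPM (SD, n = 6 each), with an edgeR log2 fold change of -0.58 (SE 0.0958, adjusted p = 2.75e-05). Shmt2 fell by 33.3%, and its 30 mM wells were below those of all 3 other groups. The 2 genes of the 10 whose ethanol wells all lay below the controls were thus Atf4 and Shmt2, against 3.09% of all genes tested; no gene of the 10 had all ethanol wells above its controls (1.08%, and 4.17% for both directions together).

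Phgdh and Psat1 encode the first 2 enzymes of serine synthesis from the glycolytic intermediate 3-phosphoglycerate, and both fell by less than Shmt2. Phgdh ranged from 103 to 129.9 CPM in controls (median 123) and from 79.8 to 119.6 CPM at 30 mM (median 88.4), so that the highest ethanol wells lay within the control range. Its log2 fold change was -0.37 (SE 0.0921, edgeR adjusted p = 0.0059), and it was called without any 1 of the 12 wells. Psat1 ranged from 273 to 375 CPM in controls (median 325) and from 251 to 295 CPM at 30 mM (median 277), with overlap at the low end of the controls. Its log2 fold change was -0.23 (SE 0.0683, edgeR adjusted p = 0.0271). The Psat1 call was lost in 7 of 12 fits without a single well (30 mM replicates 3, 4 and 6 and control replicates 1 to 4, edgeR adjusted p 0.0509 to 0.116), and with upper-quartile scaling (0.0548).

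Asns, which makes asparagine from aspartate and glutamine and carries the response element shown above, stood at 48.3 ± 5.95 CPM in controls and 45.1 ± 6.01 CPM at 30 mM (SD, n = 6 each). Its wells ranged from 39.4 to 55.0 CPM and from 38.9 to 54.8 CPM, nearly the same range. The log2 fold change was -0.10 with a 95% interval of -0.32 to 0.13 (edgeR adjusted p = 0.667). Trib3, a pseudokinase that feeds back on ATF4 and CHOP, had 3 to 12 counts per well at 30 mM, and Chac1, an enzyme that degrades glutathione, had 2 to 14. Without the filter on low counts their log2 fold changes were 0.04 (SE 0.396) and -0.04 (SE 0.361), so changes of the size seen for Atf4 were not detectable for them at this depth.

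Ddit3, which encodes CHOP, the factor linked to cell death under lasting stress, went up while Atf4 went down. Its wells ranged from 20.4 to 28.4 CPM in controls (median 23.9) and from 27.5 to 41.6 CPM at 30 mM (median 34.4), overlapping at a narrow edge. The log2 fold change was 0.48 (SE 0.144, edgeR adjusted p = 0.0244). The call ended without 30 mM replicate 3 or 4 or control replicate 1 or 5 (edgeR adjusted p 0.0563 to 0.0864). Ddit3 overlaps Mars1, the methionyl-tRNA synthetase gene, on the opposite strand in GENCODE M21, and whether counting used strand is not given in the sources used here, so reads of the 2 genes may not be told apart. Mars1 itself had a log2 fold change of -0.31 and was not called (edgeR adjusted p = 0.0682). Genes overlapping Psat1, Shmt2 and Sesn2 had 38, 35 and 53 counts in all wells together.

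Ddit4 and Sesn2 encode stress-induced inhibitors of the growth kinase complex mTORC1, and both were higher at 30 mM. Ddit4 ranged from 43.1 to 77.0 CPM in controls (median 61.6) and from 57.4 to 114 CPM at 30 mM (median 77.3), the top value being replicate 1, the well that stood apart. Its log2 fold change was 0.41 (SE 0.128, edgeR adjusted p = 0.0313), and 0.27 without that well (0.127). Sesn2 ranged from 40.8 to 48.2 CPM in controls (median 47.1) and from 43.9 to 71.5 CPM at 30 mM (median 56.8), where the wells were spread far wider than in controls. Its log2 fold change was 0.35 (SE 0.113, edgeR adjusted p = 0.0371), and 0.28 without 30 mM replicate 1 (0.111).

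The 3 rises were thus less firmly measured than the falls of Atf4, Shmt2 and Phgdh. Ddit4 was not called in 7 of 12 fits that left out a well (30 mM replicates 1, 2 and 4, control replicates 1, 2, 3 and 5, edgeR adjusted p 0.0552 to 0.127). Sesn2 was not called in 7 of 12 either (30 mM replicates 1, 2 and 5, control replicates 1, 3, 4 and 5, 0.0582 to 0.111), nor with the replicate number as a block (0.0648). DESeq2 and limma voom each called 1 of the 3 rises, Ddit3, and no rise was called when genes needed 1 CPM in 6 wells. Without 30 mM replicate 1, edgeR called 1 higher gene, Ddit3, and the same number of lower genes, 4. The sign of each of these 7 changes was the same in all 22 alternative fits.

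At 10 mM ethanol none of the 8 tested genes was called, against 0.657% of 13538 genes tested (0.391% higher, 0.266% lower). Ethanol and control wells overlapped for each of them, against 0.805% of genes whose wells did not overlap (0.502% higher, 0.303% lower). EdgeR gave 0 of these 8 at an unadjusted p under 0.05 as well, against 1366 of 13538 genes tested, and limma voom called 0. For 8 genes, a count of 0 is near that share. DESeq2 called none of Atf4, Psat1, Phgdh and Shmt2 and gave the other 4 no adjusted p. Their median log2 fold change was 0.05. Atf4 stood at 283 ± 20.8 CPM at 10 mM and 300.0 ± 9.85 CPM in the controls of experiment 2 (SD, n = 6 each), with a log2 fold change of -0.09 and a 95% interval of -0.21 to 0.02 (edgeR adjusted p = 0.618). The value at 30 mM, -0.44, lay outside this interval. Shmt2 ranged from 81.5 to 126 CPM in controls and from 95.1 to 124 CPM at 10 mM, with a log2 fold change of 0.10 and an interval of -0.06 to 0.27.

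The serine enzymes lay close to their controls at 10 mM. Phgdh was 123 ± 9.45 against 118 ± 12.6 CPM, with an interval of -0.09 to 0.20 for its log2 fold change, and Psat1 was 239.6 ± 30.4 against 232 ± 12.1 CPM, with an interval of -0.09 to 0.16. The stress and mTORC1 genes overlapped their controls as well: the log2 fold changes were -0.02 for Ddit3, 0.14 for Ddit4, -0.07 for Sesn2 and 0.14 for Asns. Chac1 and Trib3 were again below the filter. Chac1 ranged from 3.88 to 11.1 CPM at 10 mM and from 1.98 to 8.35 CPM in controls, and without the filter its log2 fold change was 0.81 (SE 0.307, edgeR adjusted p = 0.469). In that fit its unadjusted edgeR p was under 0.05. Trib3, at 6.37 ± 1.67 against 4.37 ± 1.26 CPM, had one of 0.54 (SE 0.333, edgeR adjusted p = 0.651).

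**Figure D2:**
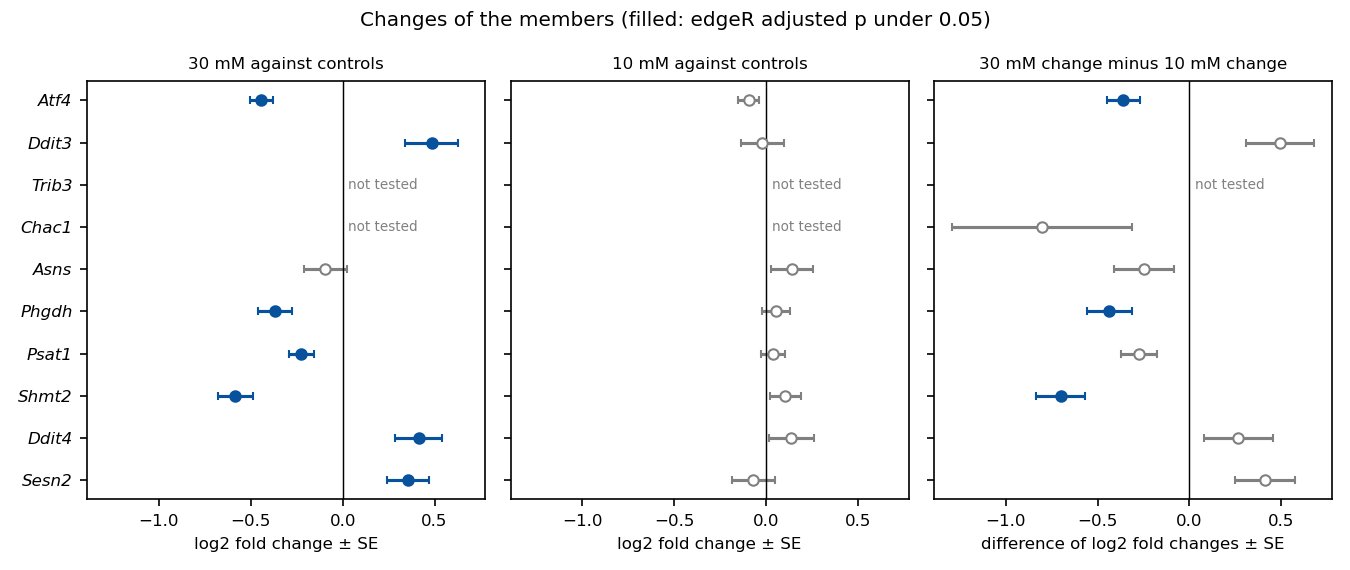
Log2 fold change of each gene with its standard error at 30 mM, at 10 mM, and the difference of the changes (edgeR, horizontal axes); filled points have an adjusted p under 0.05. Filled points stand at 30 mM for 4 lower and 3 higher genes, at 10 mM for none, and in the difference for Atf4, Phgdh and Shmt2.

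The change at 30 mM was also tested against the change at 10 mM, as their difference in a fit of all 24 wells. That fit shares its wells with the fits above, and dose, experiment and batch cannot be told apart in it. Of 9 tested genes, Shmt2, Atf4 and Phgdh had a more negative change at 30 mM, against 2.4% of 14655 genes tested in that direction, and none a more positive one (0.88%); 3.28% of genes tested were called in either direction. The differences were -0.70 for Shmt2 (SE 0.133, edgeR adjusted p = 0.000484), -0.36 for Atf4 (SE 0.0882, 0.00984) and -0.44 for Phgdh (SE 0.123, 0.0293). Psat1 and Asns had differences of -0.27 and -0.25, and Ddit3, Sesn2 and Ddit4 of 0.49, 0.41 and 0.27, with edgeR adjusted p-values of 0.115 to 0.481. Chac1, which passed the filter in this fit, had a difference of -0.80 with a wide error (SE 0.489, edgeR adjusted p = 0.404). The rises of Ddit3, Ddit4 and Sesn2 at 30 mM were therefore not shown to differ from their changes at 10 mM.

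The difference held for Atf4 and Shmt2 in all 33 alternative fits. For Phgdh it was not called with upper-quartile scaling (edgeR adjusted p = 0.0765), with the total count as a covariate (0.0843), or in 5 of 24 fits without a well. Those wells were 30 mM replicates 3 and 6, control replicate 4 of experiment 1, 10 mM replicate 1 and control replicate 5 of experiment 2, with edgeR adjusted p-values of 0.0511 to 0.0723. Psat1 was called without control replicate 6 of experiment 1 (0.0364).

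Starting levels were compared between the control groups. Of the 8 tested genes, 3 differed between the control groups, 2 higher and 1 lower in experiment 1, against 43.6% of 13479 genes tested (21.3% higher, 22.3% lower), so the count is near the share of all genes. Ddit3 was lower in the controls of experiment 1 than in those of experiment 2, 24.2 ± 3.45 against 39.0 ± 3.89 CPM, a log2 difference of -0.70 (SE 0.134, edgeR adjusted p = 1.08e-05). At 30 mM Ddit3 reached 33.9 ± 5.39 CPM, a mean below that of the untreated wells of experiment 2. Ddit4 was higher in experiment 1 by 0.79 on the log2 scale (SE 0.119, 4.54e-08), as was Psat1 by 0.46 (SE 0.0632, 3.45e-09). Psat1 at 30 mM, 276 ± 17.3 CPM, had a higher mean than both groups of experiment 2. Control levels of Atf4, Phgdh and Shmt2 differed between experiments by 0.02, 0.02 and -0.03 on the log2 scale, with signs that changed between alternative fits. The control wells of Ddit3 and of Psat1 did not overlap between the experiments, against 18.9% of genes tested (10.6% higher, 8.27% lower).

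Other genes of the pathway were read from lists of known genes, also chosen with earlier results of these data known. They stand beside 9.67% of all genes tested called at 30 mM (3.02% higher, 6.65% lower) and 0.657% at 10 mM. With lists of 3 to 13 tested genes, a count of 0 at either dose or of 1 at 30 mM is near these shares and says nothing particular about a list. Counts at an unadjusted edgeR p under 0.05 stand beside 3109 of 13235 genes tested at 30 mM and 1366 of 13538 at 10 mM. Upstream of ATF4, the eIF2α kinases with eIF2α and its phosphatase subunits had no called gene among 7 tested at 30 mM, with 1 at an unadjusted p under 0.05, and none at 10 mM, where none had an unadjusted p under 0.05; limma voom called none at either dose, nor did DESeq2 among those it gave an adjusted p. Among 6 bZIP partners and related factors of ATF4, Nupr1, a small stress-induced chromatin factor, fell at 30 mM. Its level went from 27.4 ± 12.3 to 9.49 ± 4.38 CPM (SD, n = 6 each). Its log2 fold change was -1.44 (SE 0.258, edgeR adjusted p = 0.000108), a larger fall than any of those above, and its change minus that at 10 mM was -1.06 (edgeR adjusted p = 0.0293), while DESeq2 and limma voom called no gene of that list in this difference.

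Transport and charging of amino acids moved with Atf4 in part. Of 8 transporters tested at 30 mM 3 were lower and none higher. Slc7a5, the large neutral amino acid transporter, fell from 85.3 ± 9.51 to 55.2 ± 10.5 CPM (log2 -0.61), its partner chain Slc3a2 by 0.24 and the cystine transporter Slc7a11 by 0.38 on the log2 scale. Of 12 cytosolic aminoacyl-tRNA synthetases, which load tRNAs with amino acids, 4 were lower and none higher, and all 12 had a negative log2 fold change. Over all genes tested, 7149 of 13235 had a positive one. Gars1 (-0.40), Sars1 (-0.30) and Tars1 (-0.35) had the smallest p-values. With DESeq2 2 transporters and 3 synthetases were called. The list medians were -0.11 and -0.15, beside 0.02 for all genes tested. At 10 mM no gene of either list was called by edgeR or limma voom, and none had an unadjusted p under 0.05. Slc7a5 and Gars1 changed more negatively at 30 mM than at 10 mM, by -0.65 and -0.46 (edgeR adjusted p = 0.00333 and 0.00819).

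In the rest of serine, glycine and folate metabolism few genes were called. Of 13 genes tested at 30 mM, Gcsh was lower (-0.30) and Gldc higher (0.38), both being subunits of the glycine cleavage system that breaks glycine down, and 11 were not called, shares close to those of all genes tested (6.65% lower, 3.02% higher). Among 5 other amino acid enzymes of the ATF4 programme, Aldh18a1, which starts proline synthesis from glutamate, fell by 0.44 on the log2 scale. Of 10 other ATF4 and CHOP targets tested, Map1lc3b, an autophagosome protein, rose by 0.30, Bbc3, which encodes the death protein PUMA, rose by 0.54, and the autophagy receptor Sqstm1 fell by 0.23; DESeq2 called 2 genes of that list. Beside Ddit4 and Sesn2, the list of mTORC1 nutrient control genes had 0 of 11 called by edgeR and 0 by limma voom. By edgeR 2 of the 11 had an unadjusted p under 0.05, against 3109 of 13235 genes tested.

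**Figure D3:**
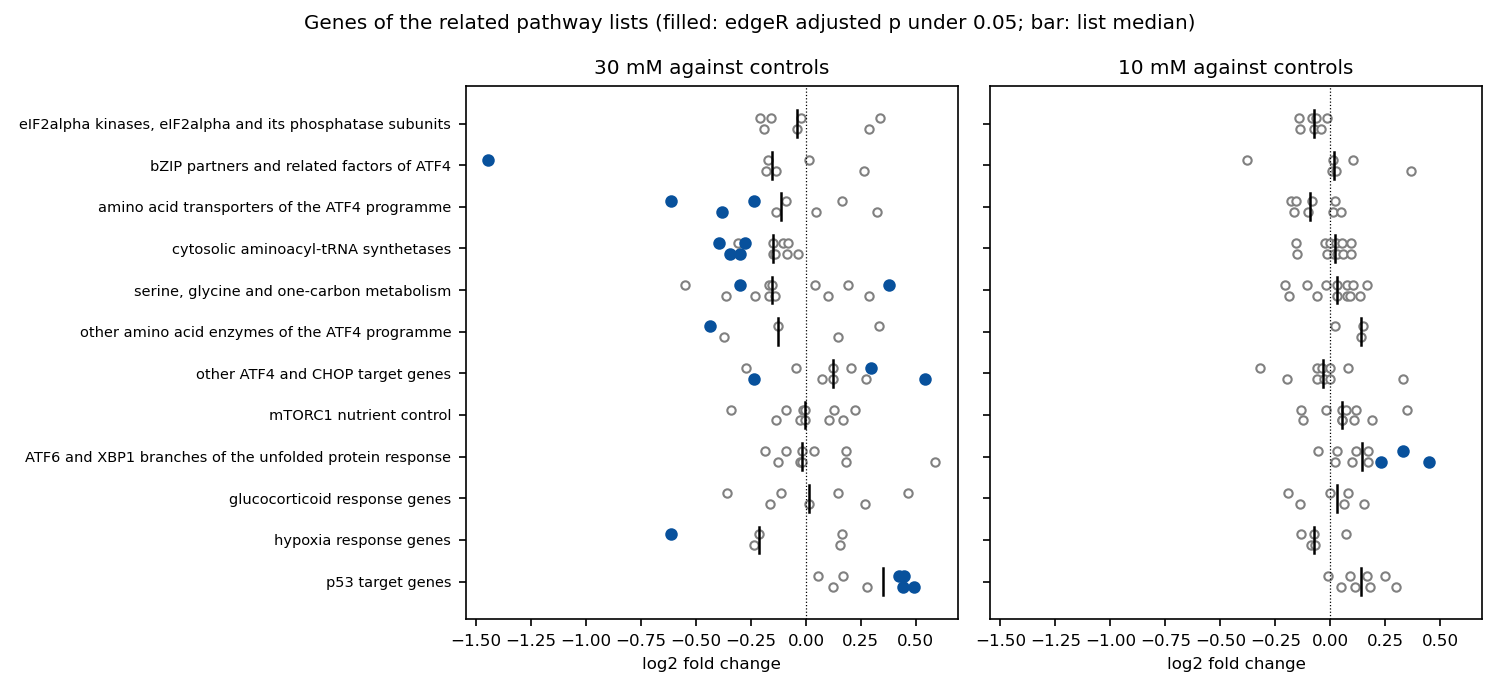
Each tested gene of 12 related lists, placed by its log2 fold change (horizontal axes) with 30 mM on the left and 10 mM on the right; filled points have an edgeR adjusted p under 0.05 and vertical bars are list medians. At 30 mM filled points lie to the left for transporters and tRNA synthetases and to the right for p53 targets (median 0.35), and at 10 mM the 3 filled points are endoplasmic reticulum genes.

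Ddit3, Ddit4 and Sesn2 are also known to answer to other stress pathways, whose genes were counted the same way. Whether these pathways had a part in the rises of Ddit3, Ddit4 and Sesn2 was not tested. Of 8 p53 targets tested at 30 mM 4 were higher and none lower, with a median of 0.35. Ccng1 (0.49), Phlda3 (0.44) and Trp53inp1 (0.42) led the list, and the ethanol wells of all 4 lay above every control well, against 1.08% of genes tested. Ccng1 was the member of that list whose change differed from that at 10 mM, by 0.39 (edgeR adjusted p = 0.0047). At 10 mM 0 of 8 were called, with 5 at an unadjusted edgeR p under 0.05. Of all genes tested, 1366 of 13538 had such a p at 10 mM and 3109 of 13235 at 30 mM. Glucocorticoid response genes, which can include Ddit4, had 0 of 7 called at 30 mM (2 at an unadjusted p under 0.05), and of 5 tested hypoxia response genes the oxygen sensor Egln3 was lower (-0.62). The ATF6 and XBP1 branches of the unfolded protein response had 0 of 10 called at 30 mM, with 2 at an unadjusted p under 0.05. Limma voom called no gene of the glucocorticoid and ATF6 lists either.

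At 10 mM that last list was the only one of the 12 with called genes. Hspa5, the main chaperone of the endoplasmic reticulum, rose from 502 ± 8.34 to 635 ± 23.6 CPM (log2 0.33, edgeR adjusted p = 3.97e-05), Sdf2l1 by 0.45 and Hsp90b1 by 0.23. Atf4, Ddit3 and the other tested stress response genes were not called in the same wells. Hspa5 at 30 mM, 656 ± 68.3 against 669 ± 74.9 CPM, did not pass the test, and its change differed from that at 10 mM by -0.37 (edgeR adjusted p = 0.00871).

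Levels of cell type markers differed between ethanol and control wells as well, and their part in the changes above was not tested. At 30 mM 7 of 10 oligodendrocyte markers were higher (summed level 7612 to 9300 CPM in controls and 9750 to 16689 CPM with ethanol) and 5 of 8 astrocyte markers (4012 to 5014 and 5524 to 6859 CPM). Mural cell and fibroblast markers were lower in 7 of 10 (1078 to 1443 and 467 to 598 CPM). In experiment 2 the mural sums were 565 to 711 CPM in controls and 554 to 640 CPM at 10 mM. The controls of experiment 1 thus lay above all other groups. Precursor markers were lower in 1 of 6, neuronal markers in 2 of 6, and Cx3cr1 was higher among 5 tested microglial markers, whose sum stayed within 155 to 273 CPM in experiment 1. Of all genes tested at 30 mM, 3.02% were higher and 6.65% lower, and 1 called marker in so short a list is near these shares. Microglial sums were 1705 to 2324 CPM in experiment 2, and endothelial sums were 27.0 to 50.4 CPM, with Cldn5 at 0 in 3 of 4 groups. P2ry12, which defines microglia, averaged under 2 CPM in both groups of experiment 1, and Tmem119 averaged 3.46 CPM in its controls and under 2 CPM at 30 mM.

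**Figure D4:**
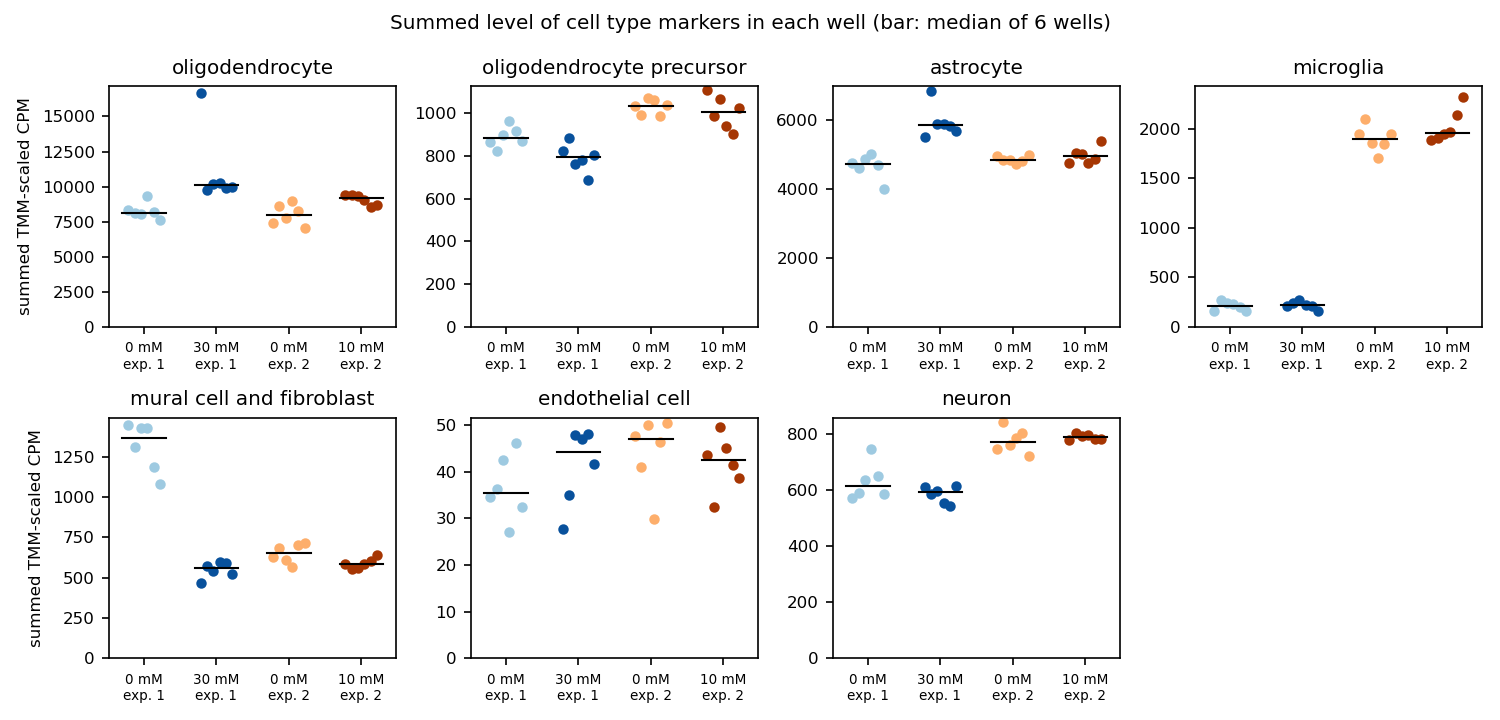
Summed level of the markers of 7 cell types in each well (TMM-scaled CPM, vertical axes from 0) in the 4 groups; bars are medians of 6 wells. Mural cell and fibroblast markers are at 467 to 598 CPM at 30 mM against 1078 to 1443 CPM in its controls. In experiment 2 they are at 565 to 711 CPM in controls and 554 to 640 CPM at 10 mM. Microglial markers are at 1705 to 2324 CPM in experiment 2 against 155 to 273 CPM in experiment 1.

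At 10 mM, 3 of 10 oligodendrocyte markers were higher (7027 to 8989 CPM in controls and 8534 to 9426 CPM with ethanol), while astrocyte sums overlapped (4720 to 5002 and 4757 to 5401 CPM) and no astrocyte marker was called. Mural markers were lower in 1 of 9 tested and microglial ones higher in 1 of 7 tested, and of the neuronal ones Tubb3 was higher and Stmn2 lower. Of all genes tested at 10 mM, 0.391% were higher and 0.266% lower. The share of counts from the mitochondrial genome was 4.09% ± 0.426 at 30 mM against 3.32% ± 0.327 in controls (SD, n = 6 each, exact two-sided permutation test, adjusted p = 0.0346 over 4 tests). At 10 mM the shares were 2.05% and 2.23% (exact permutation test, adjusted p = 0.186).

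How the 10 genes varied among wells of a group was read from their pairs. Over 45 pairs in each group of 6 wells, the median Pearson r was -0.04 at 30 mM, 0.03 in its controls, 0.24 at 10 mM and 0.21 in its controls, with 21, 25, 30 and 32 positive pairs in that order. Of 180 pairs, 8 by Pearson and 5 by Spearman had an unadjusted exact permutation p under 0.05 and none an adjusted one (smallest 0.625 and 0.985). With 6 wells the smallest possible p is 0.00278, so a single pair can hardly pass an adjustment over 180, and the absence of calls says little. The highest r was that of Shmt2 and Sesn2 at 30 mM (r 0.97, rho 0.94, exact permutation p = 0.00833 and 0.0167, adjusted 0.625 and 0.985). It was 0.95 without the 2 wells farthest from the median of Shmt2. These genes moved in opposite directions on average at 30 mM.

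Genes with a like pattern were sought among 6520 genes by Pearson r of log2 CPM over 24 wells after the group means were removed, as a description over wells that share libraries and depth. For Atf4 they were S100b (r 0.78, rho 0.77), a calcium-binding protein of the astrocyte list, Cela1 (r 0.69) and Anapc11 (r 0.68). For Asns they were Pcca (r 0.71), Ackr3 (r 0.67) and Slc39a6 (r 0.66). For Phgdh they were Cdv3 (r 0.78), Arf6 (r 0.75) and Lrrc59 (r 0.73). None of the 9 was among the 10 genes studied.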

How the data were processed

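RNA of 24 wells was sequenced as single-end 3′ tags of 100 bases. The authors deposited raw counts per Ensembl gene and well; reads were trimmed with cutadapt 1.18 and aligned with STAR to GRCm39, per the submitters' processing notes. The counting tool, its annotation and its use of strand are not given in the sources used here. Symbols came from a gene name table for 52083 of 55359 identifiers (94.1%). Counts were tested with edgeR 4.0.16 (quasi-likelihood, TMM, filterByExpr with a minimum count of 10, Benjamini-Hochberg, threshold 0.05) in each experiment, between the control groups, and for the difference of the changes. Other settings used DESeq2 1.42.0, limma 3.58.1 voom, other scalings and filters, a joint fit, a replicate block, the total count as a covariate, and each well left out. The script was tested on simulated data. There, changes of 0.5 on the log2 scale were called in 44.5% of cases at 30 mM and 49.5% at 10 mM. For the difference of the changes it was 22%. False calls made up 6.32%, 1.98% and 4.35% of calls in that order. Changes of this size can thus go uncalled, and an uncalled change is not shown to be absent. Exact permutation tests used scipy 1.17.1, and correlations used log2 CPM with a prior count of 2. No pair of the 60 replicate pairs agreed within counting noise. Motifs were searched in RefSeq promoters of GRCm38.p6, a different build from that of the counts, and overlapping genes were looked up in GENCODE M21. The 10 genes and all lists were chosen with earlier results of these data known. From each list at most 3 called genes per comparison were named, those with the smallest p, and as genes of like pattern the 3 with the highest r (mean log2 CPM of at least 5) for each of Atf4, Asns and Phgdh.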

Additional observations from a re-analysis of the deposited data

Results flagged for a closer look

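Phgdh in control replicate 6 of experiment 1 stood at 103 CPM, outside the spread of the other 5 wells of its group (121 to 129.9 CPM) by Dixon's criterion. Of 48 series of wells examined, 1 was outlying, and chance gives about 2.4.

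The change at 30 mM differed from the change at 10 mM, by edgeR's test of the difference itself, for Atf4 (-0.36), Phgdh (-0.44) and Shmt2 (-0.70 on the log2 scale). Atf4 and Shmt2 were lower in all 6 of 6 wells at 30 mM than in any control well.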

How the results depend on the processing

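The falls of Atf4, Phgdh and Shmt2 at 30 mM kept their direction and their call in all 22 alternatives run, and no sign of a called change of the 10 genes reversed. The count of higher genes among the 10 at 30 mM, 3 as reported, was 1 without a low-count filter, 0 when genes needed at least 1 CPM in 6 wells, 1 with DESeq2 and 1 with limma voom; leaving out 1 well gave 0 to 3 higher and 3 to 4 lower. Leaving out 1 well gave 2 to 4 of the 10 genes with a more negative change at 30 mM, and 2 to 3 higher in the controls of experiment 1. Over all genes, leaving out 1 well gave 953 to 1563 changed at 30 mM (291 to 557 higher, 634 to 1006 lower), 37 to 95 at 10 mM (26 to 62 higher, 9 to 38 lower), and 329 to 759 with a dose difference (68 to 216 higher, 250 to 544 lower). At 10 mM, 36 lower genes became 11 without a filter, 14 with 1 CPM in 6 wells (59 in all) and 19 with DESeq2, and the joint fit gave 21 (16 higher, 5 lower). For the dose difference, 129 higher and 352 lower became 222 and 203 with upper-quartile scaling, and at 30 mM 400 higher and 880 lower became 551 and 697. The higher count for the dose difference was 64 without a filter and 69 with DESeq2, and the total count as a covariate gave 307 in all, 210 lower. The cause was not tested. The replicate number as a block gave 365 higher and 843 lower genes at 30 mM, 41 and 27 at 10 mM, and 119 and 342 for the dose difference; of the 10 genes it ended the call of Sesn2 at 30 mM and changed no other call. Wells of the same number did not deviate together (r -0.173 to 0.255 in experiment 1, -0.0441 to 0.0367 in experiment 2, 1 of 6 best with its own number in each). Depth limits Trib3 and Chac1, at 2 to 14 counts per well.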
